A study of Saccharomyces cerevisiae with 94 samples.

Results

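The genes described here encode ribosome biogenesis factors of budding yeast, the nucleolar and nuclear proteins that process pre-rRNA and assemble both ribosomal subunits. They were chosen by name, with the nucleolin NSR1 as the marker, and not by a rule on their values. The choice was made with earlier results of these data known, and the paper shows NSR1 as an example mRNA in its time courses. Of 59 names, 58 were found as protein-coding entries among 8252 transcripts (5980 of them ORFs). NOG2 was filed as an snRNA entry and was left out. NOP58 was filed in a joint entry with YOR309C, so reads of these overlapping genes cannot be told apart. By role, 6 members belong to box C/D and H/ACA snoRNPs or the U3 snoRNP, 18 to the small subunit processome and 40S assembly, 11 are DEAD-box RNA helicases, 22 act in 60S assembly and export, and NSR1 forms a class of its own.

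Each library was a direct RNA sequencing run, in which a nanopore reads one polyadenylated RNA molecule at a time and gives both its identity and its pA-tail length. Strains were W303, except that the paper's strain list gives ccr4Δ and pan2Δ, with a matching WT, in another background. Their sample titles name W303. In the heat chase, WT cells grown at 25 °C were mixed with preheated medium to reach 37 °C and sampled over 0 to 20 min in cultures A, B and D. In the export-block chase, Mex67-AA cells (tor1-1, fpr1::NAT, RPL13-2xFKBP12, MEX67:FRB) received rapamycin at 25 °C, and libraries of 0 to 30 min in cultures A and C and 0 to 20 min in culture B were used (a 60 min sample of culture C was not analysed here). Rapamycin removes the export receptor Mex67 from the nucleus in this strain, and tor1-1 and fpr1::NAT make the cells resistant to the drug itself. WT cells at 25 °C were treated with thiolutin, a transcription inhibitor, over 0 to 60 min in culture A. Dcp2-AID, Xrn1-AID and a WT AID control all carried OsTIR1 and received 1-NAA, the auxin that triggers degradation of the tagged protein, for 2 h at 25 °C, with 2 samples of each pooled. Pab1-AID cells given auxin for 2 h or 1 h at 25 °C were compared with a 0 h control, whose samples are titled as WT although their genotype is given as Pab1-AID. Whether that comparison is of time alone or also of strain thus rests on the genotype label. By the paper's strain list, Xrn1-AID and Pab1-AID also carry tor1-1, fpr1::LEU and RPL13-2xFKBP12, which are not listed for Dcp2-AID. Pab1-AID carries MEX67:FRB as well. The deletions ccr4Δ (6 samples pooled) and pan2Δ (3 pooled) were set against a WT column that pools 8 samples, and pop2Δ (1 sample) against the undigested WT RNA library of the in vitro digestion. All are labelled as grown at 25 °C, but the titles and the column of the 8 WT samples carry a 30. The paper lists WT, ccr4Δ, pan2Δ and pop2Δ alike at 30 °C. Any difference in strain background from that WT column cannot be told apart from the deletion of CCR4 or PAN2. WT RNA digested with Xrn1 in vitro was set against undigested RNA, and Mex67-AA cells given rapamycin for 16 min with a shift to 37 °C were set against untreated Mex67-AA cells at 25 °C.

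Ribosome biogenesis genes are among the most tightly co-regulated transcripts of yeast. Their promoters are known for a pair of elements, PAC and RRPE, bound by Dot6 and Tod6 and by Stb3, which repress these genes when TOR and protein kinase A signalling falls. Their mRNAs are known to be short-lived, and in the environmental stress response they fall together, with a partial return as cells adapt.

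The promoter stretches of 8 members are shown because they carry the elements that the gene class shares and because these mRNAs span the range of responses below. Each is the stretch of 120 bases that ends just before the deposited 5′ end of the transcript, read from the RefSeq genome in sacCer3 coordinates on the gene's strand. Capitals mark PAC, searched as GATGAG or its reverse complement CTCATC, and RRPE, searched as AAAAATTTT or its reverse complement AAAATTTTT, where runs may overlap.
NSR1, chrVII:807800-807919, − strand: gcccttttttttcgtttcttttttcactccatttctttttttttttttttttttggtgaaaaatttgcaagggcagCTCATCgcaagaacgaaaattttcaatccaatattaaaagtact
NOP1, chrIV:427098-427217, + strand: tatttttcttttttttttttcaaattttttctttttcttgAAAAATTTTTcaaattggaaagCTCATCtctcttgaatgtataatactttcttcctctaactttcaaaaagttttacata
GAR1, chrVIII:283374-283493, − strand: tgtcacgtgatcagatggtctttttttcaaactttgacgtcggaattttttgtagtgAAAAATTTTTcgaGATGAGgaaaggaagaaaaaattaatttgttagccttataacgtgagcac
NOP58, chrXV:898392-898511, − strand: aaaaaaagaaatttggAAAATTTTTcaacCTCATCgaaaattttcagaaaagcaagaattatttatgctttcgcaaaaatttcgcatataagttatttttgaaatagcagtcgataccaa
NOG1, chrXVI:370780-370899, + strand: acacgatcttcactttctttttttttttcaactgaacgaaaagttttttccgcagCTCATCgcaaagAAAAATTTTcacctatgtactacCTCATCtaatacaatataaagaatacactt
TIF6, chrXVI:593192-593311, − strand: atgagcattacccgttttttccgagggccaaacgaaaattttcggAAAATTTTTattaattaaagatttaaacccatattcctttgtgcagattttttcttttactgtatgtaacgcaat
KRR1, chrIII:23430-23549, − strand: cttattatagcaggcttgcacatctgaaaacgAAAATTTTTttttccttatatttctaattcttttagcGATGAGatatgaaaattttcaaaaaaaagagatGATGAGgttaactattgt
RPF1, chrVIII:281346-281465, + strand: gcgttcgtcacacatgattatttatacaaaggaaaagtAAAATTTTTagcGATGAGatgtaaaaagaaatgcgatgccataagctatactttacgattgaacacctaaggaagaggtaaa
The stretches of NOP1, GAR1, NOP58, NOG1, KRR1 and RPF1 held both elements, NSR1 held PAC alone and TIF6 held RRPE alone. The lack of PAC in the TIF6 stretch comes from where the stretch was cut. A PAC match at -243 from the TIF6 ORF begins just before the stretch, which opens with the rest of that match. In the wider window described next, TIF6 had 2 PAC matches. In a wider window, from 250 bases before to 50 bases after the start of each ORF, 55 of 58 members (94.8%) had PAC, against 20.4% of 6007 promoters of the same length. SPB1, UTP15 and UTP22 were the members without it. RRPE was found in 41 members (70.7%), against 6.99% of all promoters, and both elements together in 39 members (67.2%), against 3.58%. Among 83 further genes of the pathway 89.2% had PAC and 62.7% had RRPE, while among 132 ribosomal protein genes (RPGs) 11.4% had PAC and 4.55% had RRPE. UTP22, a component of the small subunit processome, had neither. Its deposited 5′ end lies 275 bases before its ORF, so this window fell inside the transcript and did not cover its promoter. These are matches of letters only.

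Levels are given in RPM (reads-per-million scaling of each library counted without ENO2), where ENO2 is an mRNA that also came in as spike-in RNA of unrelated libraries. They are thus shares of the polyadenylated RNA that remained. A fall in share and less RNA per cell cannot be told apart here. Heat libraries held 25838 to 668505 reads, Mex67-AA libraries 188519 to 2184459, the thiolutin libraries 320726 to 777753, and the pooled or single columns 348649 (pop2Δ) to 5485510 (WT). The heat library of culture D at 4 min was the shallowest, with 104 member reads, and without it 7 rather than 9 members were called in the first window below. The thiolutin library at 8 min stood apart, with ENO2 at 4.34% of its reads, against 24.5 to 39.7% in the others of that chase. In the deletion, Dcp2-AID and Xrn1-AID strains the targeted mRNA was read at 4.26 RPM (CCR4 in ccr4Δ), 0.692 RPM (PAN2), 2.87 RPM (POP2), 8.18 RPM (DCP2) and 11.8 RPM (XRN1, filed as KEM1), against 31.4, 33.0, 59.3, 87.8 and 149 RPM in their controls. PAB1 mRNA in Pab1-AID went the other way, as given below. In the AID strains the mRNA is no check of the protein's depletion. Chaperone mRNAs, the other list that heat is known to move, made up 1.17 to 3.38% of reads late in the heat chase, against 0.097 to 0.102% at 0 min.

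By 10 to 12 min of heat stress nearly all ribosome biogenesis mRNAs had fallen. The 58 members together had 6640, 6644 and 7056 RPM at 0 min in cultures A, B and D. Their lowest sums were 417 RPM in culture A at 14 min, 637 RPM in culture B at 16 min and 596 RPM in culture D at 12 min, or 6.29%, 9.59% and 8.44% of their own 0 min sum. At the last time of each culture the sum stood at 17.1%, 28.3% and 44.1%. RPG mRNAs over the same time fell as shares of the library to 11.8 to 22.5%, against 40.0 to 41.6% at 0 min.

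NSR1, a nucleolar RNA-binding protein of pre-rRNA processing, showed the deepest course of the abundant members. In culture A it was read at 715, 641, 24.9, 4.83, 0 and 22.02 RPM at 0, 2, 6, 10, 14 and 18 min. In culture B it was read at 668, 293, 7.56, 2.51, 8.16 and 51.4 RPM at 0, 4, 8, 12, 16 and 20 min, and in culture D at 546, 116, 7.28, 5.14, 15.8 and 173 RPM at the same times. In each culture the 0 min value was the highest, and the libraries between 6 and 16 min held at most 24.9 RPM in each culture.

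NOP1, the fibrillarin that methylates rRNA within box C/D snoRNPs, was the most abundant member and fell later. Its levels in culture A were 1298, 1255, 719, 159, 47.9 and 123 RPM, in culture B 1255, 968.5, 410, 80.3, 76.2 and 252 RPM, and in culture D 1011, 697, 325, 61.6, 161 and 388 RPM, at the times just given. GAR1, of the H/ACA pseudouridylation particle, ran 345, 323, 249, 48.3, 5.98 and 22.02 RPM in culture A. NOP58, the box C/D core protein, was at 203 and 223 RPM at 0 and 2 min in culture A and at 12.1 RPM at 10 min. These 3 mRNAs thus stayed near their starting level at 2 min in culture A and were low in all 3 cultures at 10 to 12 min.

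TIF6, the anti-association factor that leaves the 60S subunit late in its assembly, took a different course. It was read at 421, 280, 162, 91.8, 105 and 165 RPM in culture A, at 384, 236, 68.0, 138, 139 and 206 RPM in culture B, and at 465, 116, 126, 128, 188 and 246 RPM in culture D. No library held fewer than 68.0 RPM. TIF6 was thus partly reduced throughout, whereas NOG1, a nucleolar GTPase of the same 60S pathway, was at 4.83, 5.02 and 0 RPM at 10 to 12 min in cultures A, B and D, against 145, 132 and 151 RPM at 0 min.

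**Figure D1:**
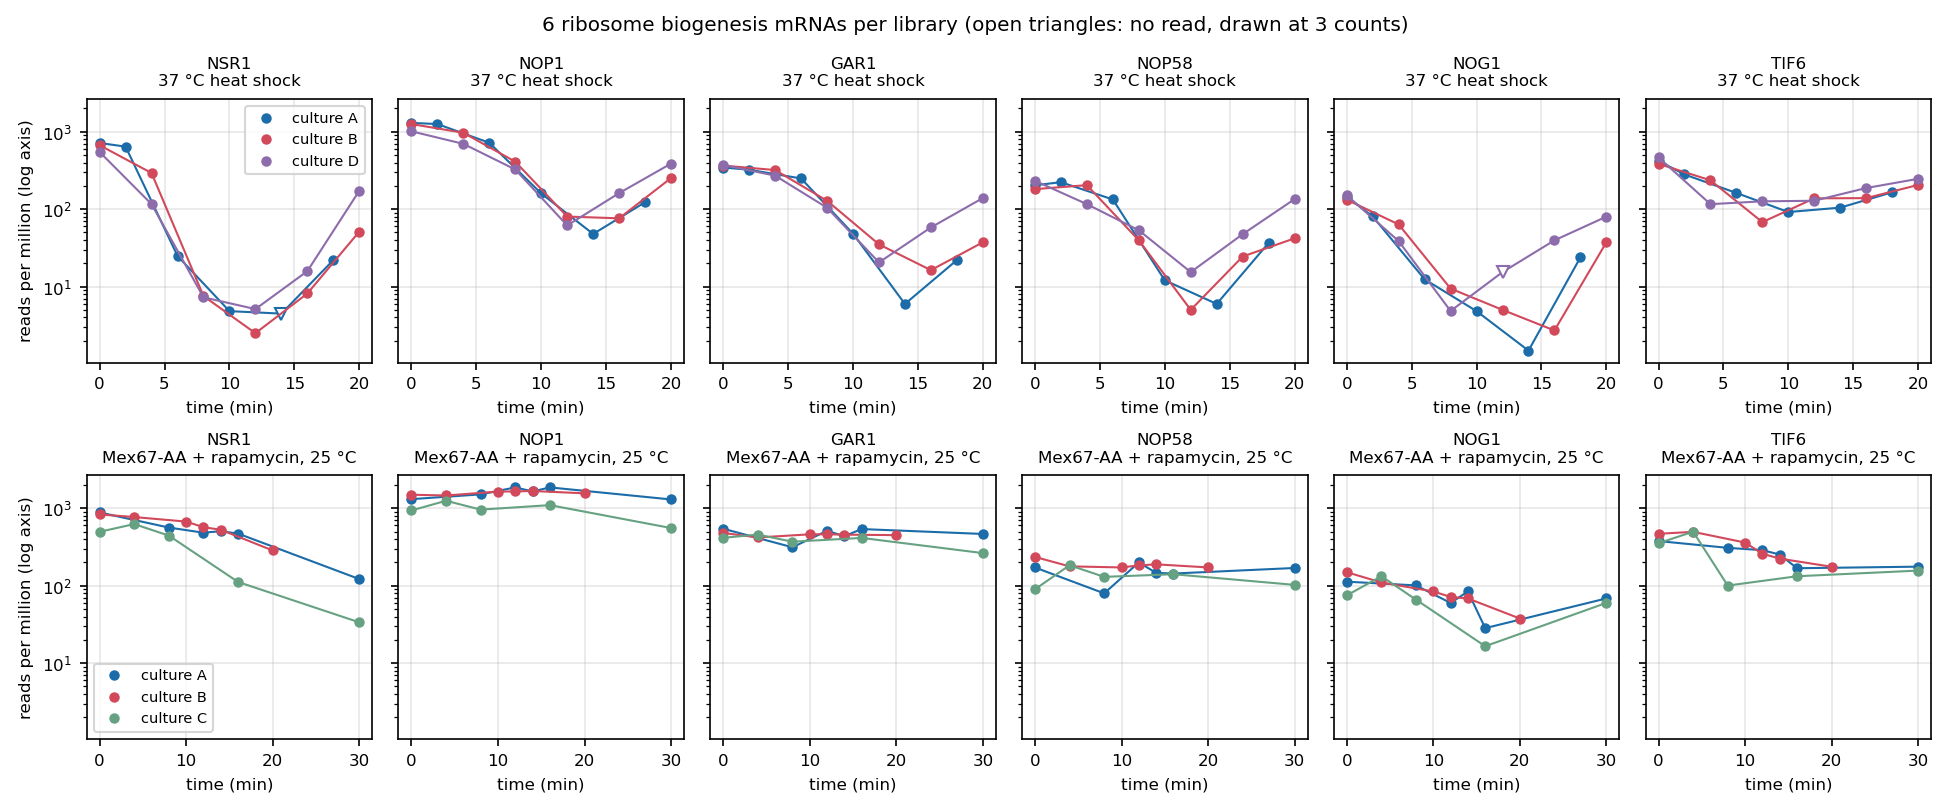
RPM (log axis) against time in minutes for NSR1, NOP1, GAR1, NOP58, NOG1 and TIF6, with the heat chase in the upper row, the Mex67-AA chase in the lower row and 1 line per culture. Open triangles are libraries without a read, drawn at 3 counts. NSR1 and NOG1 fall to 0 to 5.14 by 10 to 12 min of heat, TIF6 stays at 68.0 or more in every heat library, and under the export block NOP1 and GAR1 stay at or above 554 and 263.

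For the test, the libraries of a culture were summed in windows and each window was compared with 0 min (edgeR quasi-likelihood test with culture as a block, Benjamini-Hochberg adjustment over 4056 transcripts, called at 0.05). At 2 to 8 min, 9 members were lower and 0 were higher, where 2.56% of all transcripts tested were called lower and 9.59% higher. They were DBP8, NHP2, NOG1, RLP24, SOF1, TIF6, UTP5, UTP6 and UTP13. NOG1 had 28.1 ± 19.0 RPM at 2 to 8 min and 143 ± 9.57 RPM at 0 min (SD, n = 3 each), a log2 change of -2.16 ± 0.51 (SE, adjusted p = 0.013). TIF6 had 162 ± 47.6 RPM at 2 to 8 min and 423 ± 40.4 RPM at 0 min, a log2 change of -1.34 ± 0.24 (adjusted p = 0.0023). NSR1 changed by -2.08 ± 0.66 (adjusted p = 0.057), with 13.7 RPM in culture D and 306 RPM in culture A in this window. The first window was sensitive to single cultures: without culture B no member was called, and without culture D 25 were. The cultures also differed in time here. Culture A was sampled at 2 and 6 min, and cultures B and D at 4 and 8 min. Most reads of culture D came from 8 min (411896, against 25838 at 4 min). Differences between cultures in this window, and the SD and SE values, thus also hold differences in time, and the parts cannot be told apart.

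At 10 to 12 min, 53 members were lower and 0 were higher, where 15.1% of all transcripts were called lower and 31.8% higher. Of the 58 members, 55 passed the filter on low counts, which transcripts such as these pass through their 0 min reads. DBP7, EBP2 and UTP7 did not pass, and with no filter all 58 were called lower. MAK5, a 60S helicase, and RPF1, a 60S assembly factor, were the members tested and not called, at -1.67 ± 0.74 (adjusted p = 0.079) and -1.70 ± 0.72 (adjusted p = 0.068). The median log2 change of the members tested was -3.56, and -0.83 for RPGs, while the median over all transcripts was 0.45. By role, 20 of 21 members of 60S assembly were lower with a median of -4.06, 17 of 17 of the small subunit processome with -3.52, 6 of 6 of the snoRNPs with -3.54 and 9 of 10 helicases with -3.04. Without culture B, 37 members were called in this window.

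NSR1 was at 4.16 ± 1.44 RPM at 10 to 12 min and 643 ± 86.9 RPM at 0 min (SD, n = 3 each), a log2 change of -7.31 ± 1.20 (SE, adjusted p = 0.00039) that rests on 4 reads in the later window. RRP12, an export factor of both subunits, was not read at 10 to 12 min in any culture, against 122, 79.0 and 151 RPM at 0 min in cultures A, B and D, which places it at least 35.7-fold lower. MAK16 and UTP6, of the 60S and small subunit pathways, were likewise unread at 10 to 12 min, at least 9.89-fold and 10.5-fold lower (against 3 counts over the window). RPF2, which brings the 5S RNP into the 60S precursor, fell by 5.56 ± 1.06 on the log2 scale (adjusted p = 0.0011). At the other end, KRR1 of the 40S pathway and NOP13 changed by -1.71 ± 0.50 (adjusted p = 0.013) and -1.77 ± 0.59 (adjusted p = 0.025), and TIF6 by -1.82 ± 0.27 (adjusted p = 0.00019).

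At 14 to 20 min, 47 members were lower than at 0 min and 0 were higher, where 13.2% of all transcripts were called lower and 46.3% higher. The median log2 change of the members tested was -2.31 against 0.69 over all transcripts. NSR1 was at 45.7 ± 50.2 RPM, a log2 change of -3.84 ± 0.78 (adjusted p = 0.0011), with 103 RPM in culture D, 24.1 in culture B and 9.89 in culture A. The 8 members tested and not called were NOP16, RRP9, SOF1, SPB1, SPB4, UTP9, UTP15 and UTP22. UTP22 was read at 56.9, 79.4 and 122 RPM at the last time of cultures A, B and D and at 108, 85.4 and 105 RPM at 0 min, so these ranges overlapped (log2 change -0.64 ± 0.33, adjusted p = 0.10). UTP9, a subunit of the t-UTP complex, changed by -0.38 ± 0.64 (adjusted p = 0.62). Without culture B 21 members were called, and without culture D 55.

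Between 10 to 12 min and 14 to 20 min the members tested had a median log2 change of 1.40, against 0.23 over all transcripts, but 0 members were called higher and 0 lower in the edgeR test. Of all transcripts 0.0740% were called higher and 0.123% lower. At an unadjusted p under 0.05, in either direction, there were 22 members and 771 of the 4056 transcripts tested. At the last time, 43 of 58 members in culture A, 49 in culture B and 58 in culture D stood above their value at 10 to 12 min, and 39 did so in all 3 cultures. The share of all transcripts that did so was not counted, so these counts have no background. At 10 to 12 min 17, 12 and 19 members had no read in cultures A, B and D, and for these any later read counts as a rise. The extent differed between cultures, as the sums above show, with culture D highest. KRR1 went the other way in cultures A and B, with 3.67 and 4.67 RPM at the last time and 14.5 and 17.6 RPM at 10 to 12 min.

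Of 83 further pathway genes, 65 passed the filter, and 4, 54 and 55 of them were lower in the 3 successive windows, with median log2 changes of -0.88, -3.06 and -2.01. Of the RPGs, 129 passed, and 0, 120 and 127 were lower, with medians of -0.23, -0.83 and -1.44. All 12 chaperone mRNAs were higher in each window, with medians of 4.85, 5.79 and 5.58. Scaling by TMM in place of the library size moved the all-transcript medians to 0.00, 0.10 and 0.12 and left the members' direction as it was, with 12, 55 and 54 called lower. Shares of all transcripts called under TMM are not given here.

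When mRNA export was blocked at 25 °C, the same mRNAs declined slowly and unequally. The 58 members had 8910, 8272 and 8734 RPM at 0 min in cultures A, B and C. In culture A they stood at 7347 RPM at 8 min, 5884 RPM at 16 min and 3836 RPM at 30 min. Culture B was at 5854 RPM at 14 min and 4769 RPM at 20 min, and culture C at 4121 RPM at 16 min and 2688 RPM at 30 min.

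At 4 to 8 min 0 members were called in either direction, and 0 had an unadjusted p under 0.05, where 0% of all transcripts were called by edgeR and 153 of 4384 had an unadjusted p under 0.05. At 10 to 16 min 45 of 58 members were lower and 0 higher, where 63.1% of all transcripts were lower and 2.65% higher, with medians of -1.11 for the members and -1.17 for all. At 20 to 30 min 54 members were lower and 0 higher, where 73.8% of all transcripts were lower and 4.56% higher, with medians of -1.88 and -1.63. As a list the members thus stood near the background of the chase, in which RPG mRNAs took up a growing share of reads (38 of 128 RPGs higher at 10 to 16 min and 54 at 20 to 30 min). Under TMM, which moved the all-transcript medians to -0.19 and -0.29, 11 members were lower and 8 higher at 10 to 16 min, and 21 lower and 5 higher at 20 to 30 min. The shares above belong to the library-size scaling. Shares of all transcripts called under TMM are not given here, so these counts cannot be set against a background. Without culture A, 25 members were called lower at 10 to 16 min under the library-size scaling.

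Within the list, the small subunit processome and the snoRNPs differed in how many members were called lower. Of the small subunit processome, 17 of 18 members were lower at 10 to 16 min, with a median of -1.54, and all 18 at 20 to 30 min, with a median of -2.30. UTP9 was at 9.09 ± 3.26 RPM at 10 to 16 min and 92.1 ± 38.2 RPM at 0 min (SD, n = 3 each), a log2 change of -3.00 ± 0.35 (adjusted p = 1.6e-05). UTP15, of the same t-UTP complex, had 10.7 ± 3.98 RPM and 80.5 ± 16.6 RPM, a log2 change of -2.92 ± 0.34 (adjusted p = 1.6e-05). UTP6 was at 4.94 ± 4.59 RPM at 20 to 30 min and 48.5 ± 5.44 RPM at 0 min, a log2 change of -3.60 ± 0.47 (adjusted p = 5.1e-06). The helicases DBP7 and DBP8 fell by 3.04 ± 0.50 (adjusted p = 0.00014) and 2.67 ± 0.42 (adjusted p = 9.3e-05) on the log2 scale at 10 to 16 min. In each of these examples the 3 cultures lay below all 3 of the 0 min values.

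Of the 6 snoRNP members, 1 (RRP9, of the U3 snoRNP) was lower at 10 to 16 min and 3 at 20 to 30 min, with medians of -0.14 and -0.42. NOP1 was read at 1308, 1506, 1855, 1643, 1854 and 1296 RPM in culture A at 0, 8, 12, 14, 16 and 30 min. It was at 1492, 1458, 1636, 1646, 1667 and 1555 RPM in culture B at 0, 4, 10, 12, 14 and 20 min, and at 934, 1247, 958, 1095 and 554 RPM in culture C at 0, 4, 8, 16 and 30 min. Its log2 changes were 0.27 ± 0.16 (adjusted p = 0.14) and -0.20 ± 0.16 (adjusted p = 0.26). GAR1 had 455 ± 39.9 RPM at 10 to 16 min and 479 ± 64.2 RPM at 0 min, a log2 change of -0.08 ± 0.18 (adjusted p = 0.72), and NOP58 158 ± 21.7 RPM and 165 ± 72.8 RPM, a log2 change of -0.06 ± 0.26 (adjusted p = 0.83). Under TMM the direction of GAR1, NOP58, CBF5 and NHP2 turned and 5 snoRNP members were called higher at 10 to 16 min, so their sign depended on the scaling.

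NSR1 lay between these groups. It was read at 880, 562, 483, 505, 470 and 122 RPM in culture A, at 831, 768, 671, 568, 527 and 284 RPM in culture B and at 496, 624, 442, 112 and 33.6 RPM in culture C. Its log2 change was -1.03 ± 0.32 (adjusted p = 0.0088) at 10 to 16 min and -2.54 ± 0.34 (adjusted p = 5.6e-06) at 20 to 30 min. Among 81 further pathway genes that passed the filter, 67 and 74 were lower in these windows, with medians of -1.20 and -2.13.

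**Figure D2:**
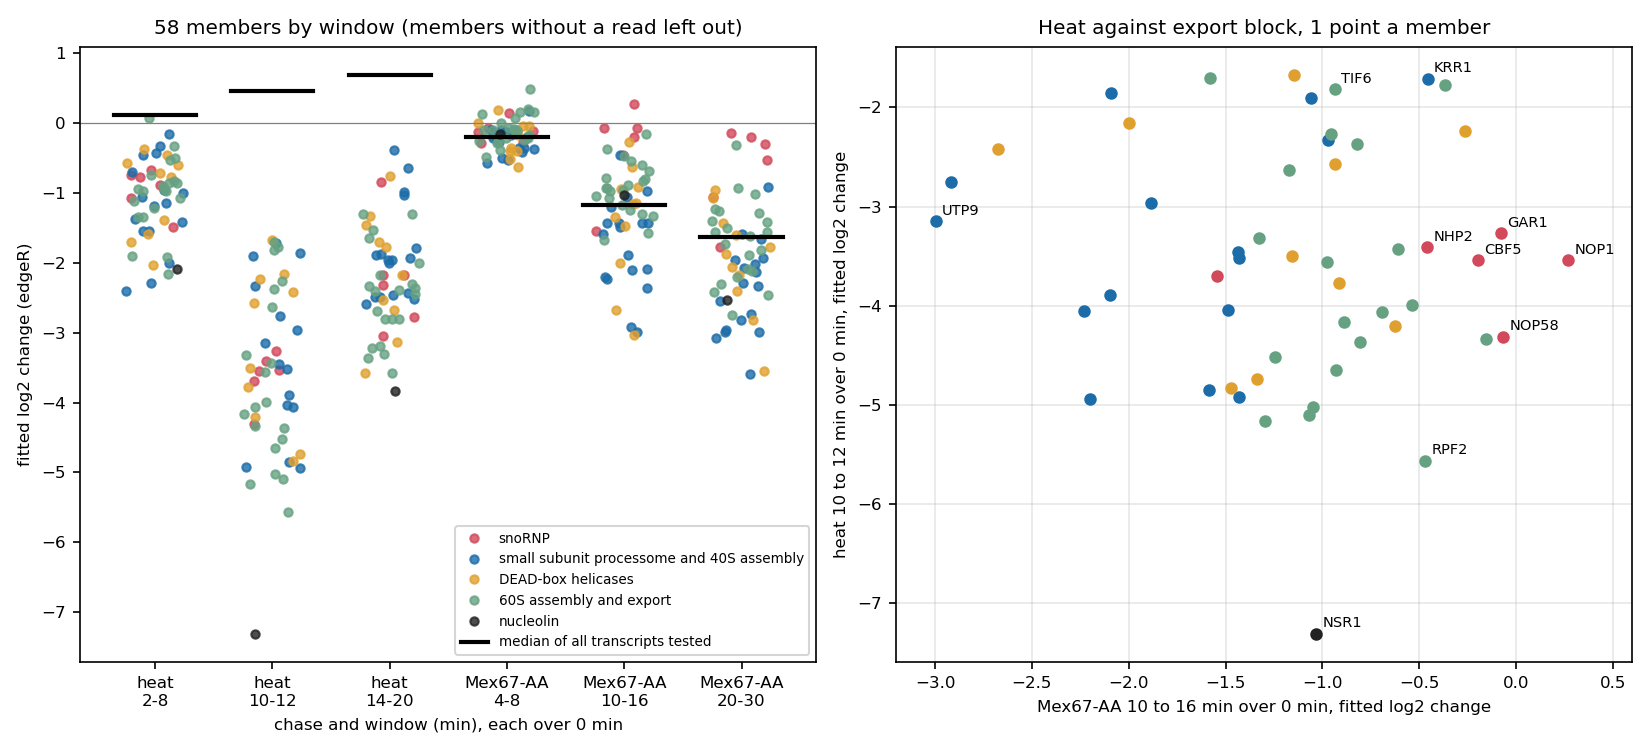
Left, the fitted log2 change of each member (points coloured by role) in each window over 0 min, with black bars at the median of all transcripts tested; members without a read in a heat window are left out. Right, the heat change at 10 to 12 min against the Mex67-AA change at 10 to 16 min, 1 point per member: the snoRNP members NOP1, GAR1, NOP58 and CBF5 lie near 0 under the export block and between -3.27 and -4.31 in heat.

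The difference between the chases was tested itself, in a single fit over both. Up to 8 min, 2 of 58 members, NOG1 and TIF6, were lower in heat than under the export block, where 0.208% of all transcripts were. At an unadjusted p under 0.05, in either direction, there were 16 members and 901 of the 4813 transcripts tested. The median difference in log2 change was -0.84 for the members and 0.34 for all transcripts. NOG1 differed by -2.10 ± 0.61 (adjusted p = 0.043) and TIF6 by -1.24 ± 0.32 (adjusted p = 0.018). Neither call held without heat culture B or without Mex67-AA culture A.

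With heat at 10 to 12 min set against the export block at 10 to 16 min, a pair of windows added after the data were seen, 41 of 58 members were lower in heat, where 7.73% of all transcripts were. The median difference was -2.82 for the members and 1.73 for all transcripts. NSR1 differed by -6.30 ± 1.24 (adjusted p = 0.00015), NOP58 by -4.26 ± 0.71 (adjusted p = 3.0e-05) and NOP1 by -3.81 ± 0.49 (adjusted p = 1.3e-06). CBF5, the pseudouridine synthase of H/ACA snoRNPs, differed by -3.35 ± 0.56 (adjusted p = 3.0e-05), GAR1 by -3.19 ± 0.60 (adjusted p = 9.5e-05) and NHP2, of the same particle, by -2.96 ± 0.60 (adjusted p = 0.00022). TIF6 differed by -0.88 ± 0.33 (adjusted p = 0.022). The chases also differ in strain and time points, and the part of these in the difference was not tested. Without heat culture B, 27 members were called.

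The mean pA-tail of the member mRNAs that were read fell and then rose in heat. For RPG mRNAs the paper attributes long tails late in heat to newly made transcripts, and it left the last times out of its tail modeling. A longer mean late in heat is thus a mean over the molecules read then, and whether these were new was not tested for the members. Read-weighted over all members, the mean tail in culture A was 35.6, 29.6, 21.7, 22.6, 37.6 and 49.8 adenosines at 0, 2, 6, 10, 14 and 18 min. In culture B it was 33.5, 24.4, 20.0, 28.5, 44.1 and 46.9 adenosines at 0, 4, 8, 12, 16 and 20 min, and in culture D 34.8, 24.8, 20.9, 33.7, 48.6 and 47.0 adenosines. This mean was lowest at 6 to 8 min in each culture and higher at the last time than at 0 min in all 3. The mix of mRNAs behind it changed: the long-tailed TIF6 gave 55 of 259 member reads at 12 min in culture B and 25 of 116 in culture D, against 180 of 3112 and 40 of 607 at 0 min. The tails of NOP1 alone were shorter at 10 to 12 min (19.7, 17.2 and 16.8 adenosines in cultures A, B and D) than at 6 to 8 min (21.4, 20.3 and 19.4), with 66, 32 and 12 reads behind the means at 10 to 12 min. RPG tails ran 27.0 at 0 min, 19.7 at 14 min and 27.5 adenosines at 18 min in culture A.

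Of the 58 members, 2 (NOP1 and TIF6) had 10 reads in every culture and window and were tested (limma on mean tails, over 877 transcripts). NOP1 tails were 33.2, 31.2 and 32.2 adenosines at 0 min in cultures A, B and D, 19.7, 17.2 and 16.8 at 10 to 12 min, and 49.5, 44.5 and 43.6 at the last time, with no overlap between these times. They changed by -9.15 ± 1.47 at 2 to 8 min (adjusted p = 0.0072), by -14.3 ± 1.47 at 10 to 12 min (adjusted p = 0.00091) and by 11.5 ± 1.47 at 14 to 20 min (adjusted p = 0.0074). Shorter tails were called for 5.25% and 20.9% of all transcripts in the first and second windows, and longer tails for 3.31% in the last. TIF6 tails were 47.9, 48.1 and 47.9 adenosines at 0 min in cultures A, B and D. They were shorter at 2 to 8 min, with a change of -7.37 ± 1.79 (adjusted p = 0.038), and did not pass the test later, at -3.08 ± 1.79 (adjusted p = 0.21) and 2.60 ± 1.79 (adjusted p = 0.35). When any 1 culture was left out, no tail call held in the first and last heat windows, and that of NOP1 at 10 to 12 min held only without culture A.

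Under the export block, 20 members could be tested among 1058 transcripts. At 4 to 8 min 0 were called by limma, where 0% of all transcripts were. At 10 to 16 min 17 were shorter, with a median change of -10.2 adenosines, where 79.1% of all transcripts were shorter, and at 20 to 30 min 9 were, where 71.7% were. Without culture C no member was called at 10 to 16 min. HAS1, a helicase of both subunit pathways, had mean tails of 21.5, 23.4 and 21.0 adenosines at the last time of cultures A, B and C and of 40.1, 38.2 and 42.6 at 0 min, a change at 20 to 30 min of -18.3 ± 2.50 (adjusted p = 0.00071). NOP7, of 60S assembly, changed by -18.0 ± 2.37 (adjusted p = 0.00069) and NOP13 by -15.0 ± 3.12 (adjusted p = 0.0024).

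NSR1 and TIF6 did not follow this course. NSR1 tails were 40.0, 21.5 and 52.0 adenosines at the last time of cultures A, B and C (30, 20 and 30 min) and 32.7, 30.9 and 30.4 at 0 min, a change of 6.48 ± 5.69 (adjusted p = 0.32) that differed in direction between cultures. TIF6 tails were 71.0, 46.3 and 60.4 at the last time and 49.0, 44.2 and 40.3 at 0 min, a change of 14.7 ± 6.22 (adjusted p = 0.057). In both mRNAs the culture sampled at 20 min was lowest of the 3 at its last time. The paper left the last times of this chase out of its tail modeling. It attributes late rises in mean tail to a few hyperadenylated nuclear mRNAs that weigh more once most cytoplasmic mRNA is gone. Whether that applies to NSR1 and TIF6 was not tested.

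**Figure D3:**
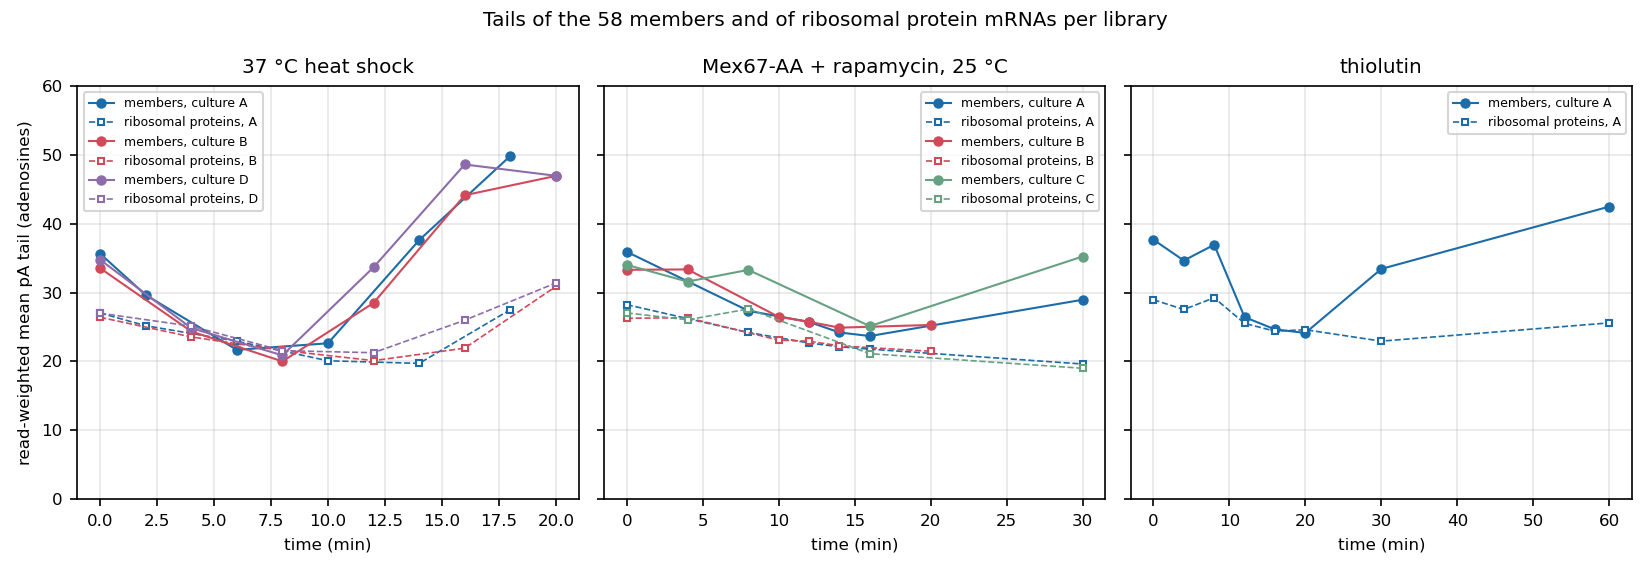
Read-weighted mean pA-tail in adenosines against time in minutes for the 58 members (filled circles) and RPG mRNAs (open squares), by culture, in the heat, Mex67-AA and thiolutin chases. In heat the member tails fall to 20.0 to 21.7 adenosines at 6 to 8 min and end between 46.9 and 49.8.

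The thiolutin chase came from 1 culture and thus allowed no test. The members together had 6350, 5229, 7012, 2912, 2064, 1516, 402 and 268 RPM at 0, 4, 8, 12, 16, 20, 30 and 60 min, and their mean tails were 37.7, 34.6, 36.9, 26.4, 24.6, 24.1, 33.4 and 42.5 adenosines. The 8 min library departed from the trend in both measures. Members at least 2-fold lower than at 0 min numbered 39, 51, 54, 58 and 58 of 58 at 12, 16, 20, 30 and 60 min, where 18.3%, 23.0%, 25.1%, 32.5% and 30.4% of all transcripts were. The median ratio of the members was 0.408 at 12 min, 0.177 at 20 min and 0.0226 at 60 min. Of the tails with 10 reads, 45 of 48 were at least 5 adenosines shorter at 12 min, where 33.4% of all transcripts were. Chaperone mRNAs made up 0.111%, 1.94% and 1.19% of reads at 0, 30 and 60 min.

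NSR1 was read at 537, 355, 625, 145, 56.0, 22.6, 4.54 and 3.12 RPM over these times, and its ratio at 16 min was 0.104 (95% exact interval of the reads 0.068 to 0.153). NOP1 ran 705, 670.5, 882.5, 514, 306, 229, 29.5 and 15.6 RPM and so declined later than NSR1, as in heat. UTP15 was among the first to fall, with a ratio of 0.097 (0.034 to 0.226) at 12 min, and NUG1, a GTPase of 60S export, had 99.0 RPM at 12 min and 107 RPM at 0 min. TIF6 was read at 375, 311, 331, 198, 118, 126, 90.8 and 109 RPM and levelled off, with ratios of 0.242 (0.169 to 0.340) at 30 min and 0.291 (0.198 to 0.417) at 60 min. These were the highest ratios of the members with 50 reads at 0 min.

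In the strains that lack decay or deadenylation factors, each group was 1 column, pooled or single, so that ratios carry counting intervals (95%, exact) and no test. With Xrn1, the cytoplasmic 5′ to 3′ exonuclease, depleted, members were higher as a group: 40 of 58 were at least 2-fold higher than in the control, where 12.1% of all transcripts were, with a median ratio of 2.47 against 1.07. NSR1 had 656 RPM in Xrn1-AID and 212 RPM in the control, a ratio of 3.09 (2.72 to 3.52). BRX1, of 60S assembly, had 300 RPM in Xrn1-AID and 67.3 RPM in the control, a ratio of 4.46 (3.59 to 5.56), while DBP7 was at 0.893 (0.594 to 1.32). Of further pathway genes 59 of 81 were 2-fold higher, and of RPGs 8 of 129. With Dcp2, the decapping enzyme, depleted, 1 member, UTP5 of the t-UTP complex, was 2-fold higher, at 2.173 (1.34 to 3.56), where 18.5% of all transcripts were, with a median ratio of 1.10 against 1.31, and NSR1 at 1.12 (0.945 to 1.32). Tails of 20 members were at least 5 adenosines shorter in Dcp2-AID and of 21 in Xrn1-AID, where 55.5% and 34.3% of all transcripts were. Both depletions used the same control column. Xrn1-AID also differs from Dcp2-AID in the alleles named above, and their part in these ratios was not tested.

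After depletion of Pab1, the poly(A)-binding protein, tails were at least 5 adenosines longer in 58 of 58 members at both 1 h and 2 h, where 82.9% and 85.8% of all transcripts were longer. The median differences were 14.6 and 14.1 adenosines, and 4.4 and 6.7 for RPGs. NSR1 tails were 39.0 adenosines at 1 h and 41.9 at 2 h, against 29.3 at 0 h. In abundance 4 members (DBP7, MAK21, RPF1 and UTP5) were 2-fold lower at 1 h and 23 at 2 h, where 3.75% and 9.84% of all transcripts were. IMP3, which joins U3 snoRNA to pre-rRNA, was lowest at 2 h among members with 50 control reads, at 0.257 (0.147 to 0.428), and UTP20 was the member 2-fold higher, at 2.03 (1.66 to 2.48), where 1.47% of all transcripts were. PAB1 mRNA itself was at 39.9 RPM at 2 h and 23.1 RPM at 0 h, so the mRNA is no check of the protein's depletion.

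Of the deletions of deadenylase subunits, ccr4Δ had 0 members past 2-fold in either direction, where 5.59% of all transcripts were lower and 5.52% higher, and tails of 47 members were at least 5 adenosines longer, where 63.4% were. TIF6 had 378.5 RPM in ccr4Δ and 244 RPM in WT, a ratio of 1.55 (1.42 to 1.69), with tails of 58.3 and 51.0 adenosines. In pan2Δ 3 members were 2-fold lower (NOP16, EBP2 and KRR1), where 16.2% of all transcripts were, and tails of 55 were longer, where 61.4% were. NSR1 had 686.5 RPM in pan2Δ and 543 RPM in WT, a ratio of 1.26 (1.19 to 1.34), and NOP1 1129 RPM and 866.5 RPM, a ratio of 1.30 (1.24 to 1.36). Their WT column lies in another table, its label and titles differ in temperature, and its strain background may differ, as above. In pop2Δ, against the library that also serves as control of the digestion below, 7 members (DBP8, NOP12, RRP3, SOF1, UTP5, UTP13 and UTP15) were 2-fold higher, where 26.9% of all transcripts were, and tails of 41 were longer, where 42.7% were. Digestion of WT RNA with Xrn1 in vitro, which removes uncapped RNA, left 3 members (MAK21, ROK1 and DBP10) 2-fold lower, where 7.87% of all transcripts were, and NSR1 at 473 RPM in digested and 469 RPM in undigested RNA. A different column for the digested sample, of 807307 reads, stands in a second table, and with it 3 members were 2-fold lower as well.

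**Figure D4:**
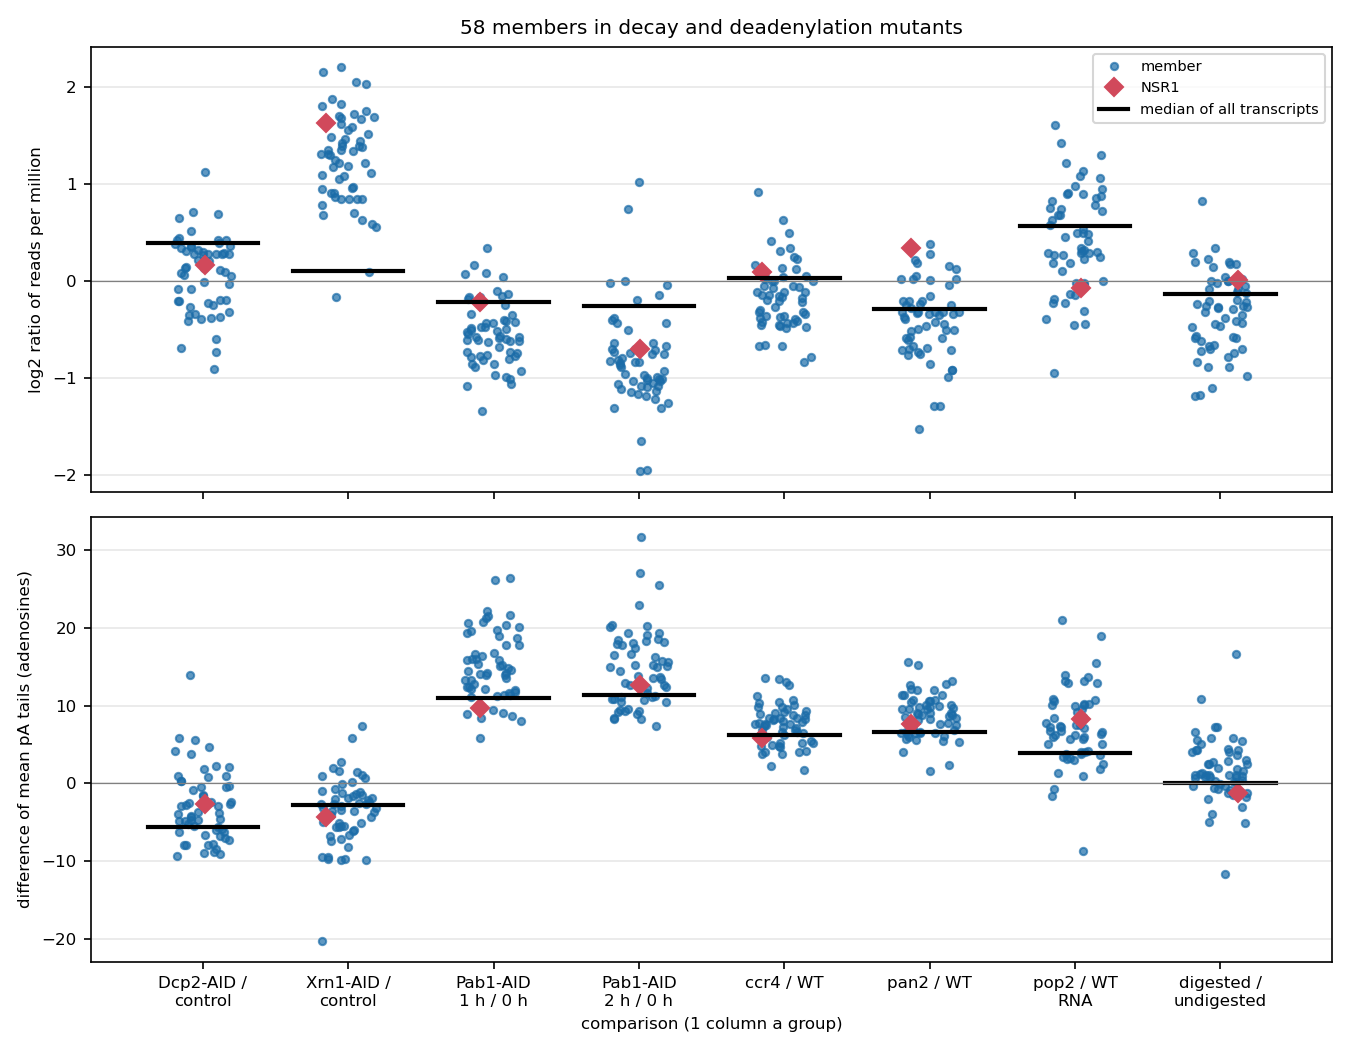
Log2 ratio of RPM (upper panel) and difference of mean pA-tails in adenosines (lower panel) for the 58 members in each strain or treatment over its control, 1 column a group, with NSR1 as a diamond and black bars at the median of all transcripts. Members stand above the bar in Xrn1-AID (median ratio 2.47), and all lie above 0 in the tails of Pab1-AID.

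Heat was also applied under the export block. By the paper, rapamycin was added shortly before the heat. The tested cells had both rapamycin and heat and the control cells had neither, so their parts in the ratios cannot be told apart. Heat without rapamycin in this strain was not analysed here. In Mex67-AA cells given rapamycin for 16 min and shifted to 37 °C, 54 of 58 members were at least 2-fold lower than in untreated cells at 25 °C, where 66.2% of all transcripts were. Their median ratio was 0.149, against 0.323 over all transcripts and 1.08 over RPGs. NSR1 had 35.8 RPM with rapamycin and heat and 864 RPM without, a ratio of 0.0415 (0.0332 to 0.0513). NOP1 had 466 RPM and 1370 RPM, a ratio of 0.340 (0.319 to 0.363), and TIF6 78.9 RPM and 407 RPM, a ratio of 0.194 (0.166 to 0.226). The 4 members within 2-fold were RPF1 at 0.501, HAS1 at 0.572, NOP13 at 0.621 and KRR1 at 0.781. Tails of 38 of 52 members were at least 5 adenosines shorter, where 67.3% of all transcripts were, and NOP1 tails were 18.8 adenosines with rapamycin and heat and 32.8 without. The untreated column is the sum of the 0 min libraries of Mex67-AA cultures A and B, so it shares them with the chase above.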

How the data were processed

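The authors enriched pA+ RNA with oligo-dT, sequenced it directly (SQK-RNA002 chemistry), called bases with Guppy, mapped reads with minimap2 2.17 to a custom S. cerevisiae transcriptome (sacCer3), used SAMtools 1.9 and estimated tails with Nanopolish polya. They deposited raw read counts per transcript and the mean, median and 90th percentile of its tail lengths in adenosines. Of 1320 value columns in 15 tables, 1088 (other tail statistics, or columns that matched no sample) were not used. Of 94 samples, 46 had a column of their own and 11 columns were pooled. Thiolutin culture B, the Mex67-AA sample at 60 min and the pan2 ccr4 double mutant were not analysed here.

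Counts were scaled to the library without ENO2. In the replicated chases, counts of a culture were summed in windows (heat: 0, 2 to 8, 10 to 12 and 14 to 20 min; Mex67-AA: 0, 4 to 8, 10 to 16 and 20 to 30 min) and tested with edgeR 4.0.16 (quasi-likelihood, culture as a block, FDR 0.05, low counts filtered); tails with 10 reads in every culture and window were tested with limma 3.58.1. Replicate letters name separate cultures, each followed over time, so libraries of a letter are paired by design. The deviations of same-letter windows correlated above 0.1 in 2 of 18 pairs (heat) and 12 of 18 (Mex67-AA). For windows of different letters this was so in 3 of 36 and 6 of 36 pairs. In heat the median correlation was 0.0264 for the same letter and -0.0153 for different letters, so the heat values showed little pairing. Elsewhere, ratios with 10 control reads were called at 2-fold and tails at 5 adenosines, with 95% exact intervals that, like all floors of 3 counts, cover counting error only. On counts simulated for heat at 10 to 12 min (4056 genes), 78.5% of 4-fold and 23.7% of 2-fold changes were recovered; for Mex67-AA at 10 to 16 min (4384 genes), 89.3% and 42.7%. In the WT column of ccr4Δ and pan2Δ, 10.5% of reads sat in second entries of ORFs and were added to them. The 5′ ends, PAC and RRPE were read in the RefSeq genome, where 5799 of 5807 ORFs overlapped their annotation. DESeq2 1.42.0, TMM, filters, thresholds and left-out cultures were alternatives. Software was R 4.3.3, Python 3.11.15, pandas 2.3.3, numpy 2.4.6, SciPy 1.17.1 and matplotlib 3.10.9.

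Members and lists were chosen with earlier results of these data known. Genes named were NSR1, the snoRNP core, the 5 most negative, 5 most positive and 5 best-read members per window, 3 per direction in unreplicated groups among those with 50 control reads, and 2 best-read members per role; others were named after their values were seen.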

Additional observations from a re-analysis of the deposited data

Results flagged for a closer look

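Differences between the chases were picked out by the test of the difference itself (edgeR, 1 fit over both, adjusted over all transcripts). Up to 8 min, heat minus export block was -2.10 in log2 for NOG1 and -1.24 for TIF6, lower in heat in all 3 cultures. At 10 to 12 min of heat against 10 to 16 min of export block, 41 members were lower in heat. Among the genes named for every chase, the difference was -6.30 for NSR1, -4.26 for NOP58, -3.81 for NOP1, -3.35 for CBF5, -3.19 for GAR1 and -2.96 for NHP2. No cause of these differences was tested.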

How the results depend on the processing

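Reads limit these results: heat libraries at 10 to 12 min held 116 to 319 member reads, 12 to 19 members had none there, and single cultures decide many calls. Of the counts of members called, 263 alternative values stayed within 1.5 times and 70 moved. Of the values of single genes, 1468 kept direction and side of the threshold, 64 lost a call, 54 gained one, 113 untested ratios moved beyond their interval and 23 reversed. The cause of the changes below was not tested. Shares of all transcripts called under each alternative are not given, so the counts below show dependence on the processing only.

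Heat, lower at 2 to 8 min (9): 27 with no filter on low counts, 1 with each library kept apart, 15 with no replicate block and 0 to 25 with a culture left out. At 14 to 20 min (47) leaving a culture out gave 21 to 55, and at 10 to 12 min (53) 37 to 55. For 14 to 20 over 10 to 12 min, 11 members were higher with no filter, and 0 to 4 were higher and 0 to 4 lower with a culture left out (4 without D). Without the replicate block the counts were otherwise 54 (10 to 12 min) and 48 (14 to 20 min) in heat and 42 and 53 in Mex67-AA, and it changed no other count of abundance calls beyond 1.5 times.

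Mex67-AA, 10 to 16 min (45 lower, 0 higher): TMM gave 11 and 8, DESeq2 11 and 6, and left-out cultures 25 to 47 lower. At 20 to 30 min (54 and 0): TMM gave 21 and 5, DESeq2 19 and 5, and left-out cultures 50 to 53 lower. These scalings reversed, at 10 to 16 min (TMM, DESeq2), CBF5 (0.79, 0.64), GAR1 (0.93, 0.78), NOP58 (0.91, 0.80), NOP7 (0.83, 0.68) and, by TMM, NHP2 (0.54). At 20 to 30 min they reversed CBF5 (0.79, 0.79), GAR1 (1.04, 1.03), NHP2 (0.28, 0.27), NOP1 (1.13, 1.12), NOP58 (1.18, 1.19) and NOP7 (1.01, 1.00). With a heat culture left out, GAR1 ranged over -1.31 (without D) to 1.11 for 14 to 20 over 10 to 12 min, against 0.22.

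Heat minus Mex67-AA up to 8 min (2 lower): TMM 4, no filter 12, no replicate block 1, and left-out cultures 0 to 8. For the later pair (41), left-out cultures gave 27 to 42.

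In the tail tests a minimum of 20 reads takes members out of the test, so a lower count there need not be a lost call. NOP1, with 12 reads in culture D at 10 to 12 min of heat, was not testable at 20 reads. Heat tails: the 2 shorter at 2 to 8 min became 1 with 20 reads, 1 with median tails and 1 with 90th percentiles. They became 0 with a culture left out. The 1 at 10 to 12 min became 0 with 20 reads and 0 to 1 with a culture left out. The 1 longer at 14 to 20 min became 0 with 20 reads and 0 with 90th percentiles. It became 6 with reads required only in the windows compared and 0 with a culture left out. Mex67-AA tails: the 17 shorter at 10 to 16 min became 8 with 20 reads, 10 with 90th percentiles and 0 to 15 with a culture left out; NOP58 turned to 2.60 in 90th percentiles. The 9 shorter at 20 to 30 min became 5 with 20 reads, 15 with median tails, 5 with 90th percentiles and 7 to 14; the 0 longer became 1 with 20 reads, 1 with 90th percentiles, 1 with no replicate block, 2 with reads required only in the windows compared and 0 to 2.

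Stricter read minimums (50) lower what can be counted: thiolutin 16 lower and 11 shorter at 12 min, 24 lower and 5 shorter at 20 min, 26 lower at 30 min; Dcp2-AID 0 higher and 9 shorter; pop2Δ 3 higher and 11 longer; Mex67-AA with heat 16 shorter. A 1.5-fold threshold gave 4 higher in Dcp2-AID, 27 and 46 lower in Pab1-AID at 1 h and 2 h, 22 higher in pop2Δ and 17 lower after Xrn1 digestion.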
